A study of Mus musculus with 8 samples.

Results

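Notch signalling genes were measured in testis RNA of house mice, with Hey1, a target of the pathway, as the gene that led to their choice. The 10 genes listed were Hey1, Hes1, Notch1, Notch2, Notch3, Notch4, Jag1, Jag2, Dll1 and Dll3, and every probe set whose array annotation gave 1 of these symbols was taken. A probe set is the collection of short probes whose joint signal stands for 1 transcript. This gave 12 probe sets of 8 genes, out of 12422 probe sets on the array and 10833 with a single gene symbol. Jag1 and Dll3 were matched to no probe set by symbol and were not analysed here. The gene family was selected on the measured Hey1 intensity, which was high in the castaneus RNA, so that value is given as a description with no test, and the tests bear on the other members and on Hey1 among the other groups.

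Total RNA from testis was hybridised to 8 Affymetrix arrays in 4 groups of 2, labelled Mus musculus followed by castaneus, domesticus, musculus or ssp. The labels call the 2 arrays of a group technical replicates, and they give no strain, age, treatment or number of animals. They do not say what ssp stands for. All p-values therefore measure the spread between technical replicate arrays, and a difference is one of intensity between these RNA samples, not between mouse populations. Whether the probes match the RNA of all 4 groups equally well was not tested. In RNA of whole tissue, fewer cells of a type and less RNA per cell cannot be told apart.

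Notch receptors sit in the cell membrane and bind ligands of the Jagged and Delta families on a neighbouring cell. Binding lets ADAM proteases and then gamma-secretase cut the receptor, and the freed intracellular part joins the DNA-binding protein Rbpj and a Mastermind coactivator to switch on target genes. The best known targets are the Hes and Hey genes, which encode basic helix-loop-helix repressors. In testis the pathway has been described in Sertoli cells, germ cells and the precursors of Leydig cells, and Hey1 is also known as a target gene in the endothelium of arteries.

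Values are intensities as the authors deposited them. Genes were compared between groups within the same probe set, since probe sets differ in how brightly they hybridise. The marker sums given further on add different probe sets, so sums of different lists cannot be set against each other. Intensities below 18.7, the 10th percentile of all values, were raised to that floor before log2 was taken, and group values are geometric means with the SD on the log2 scale (n = 2 arrays). Tests were run on the 8874 probe sets at or above the 40th percentile of the array on at least 2 arrays. Among the members, 8 of 12 probe sets, from 6 genes, passed: those of Hey1, Hes1 and Notch3, both of Notch2, both of Notch4 and 1 of Notch1. Array medians lay between 151.2 and 182.6, and 7.39% to 13.1% of an array's probe sets were at the floor.

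**Figure D1:**
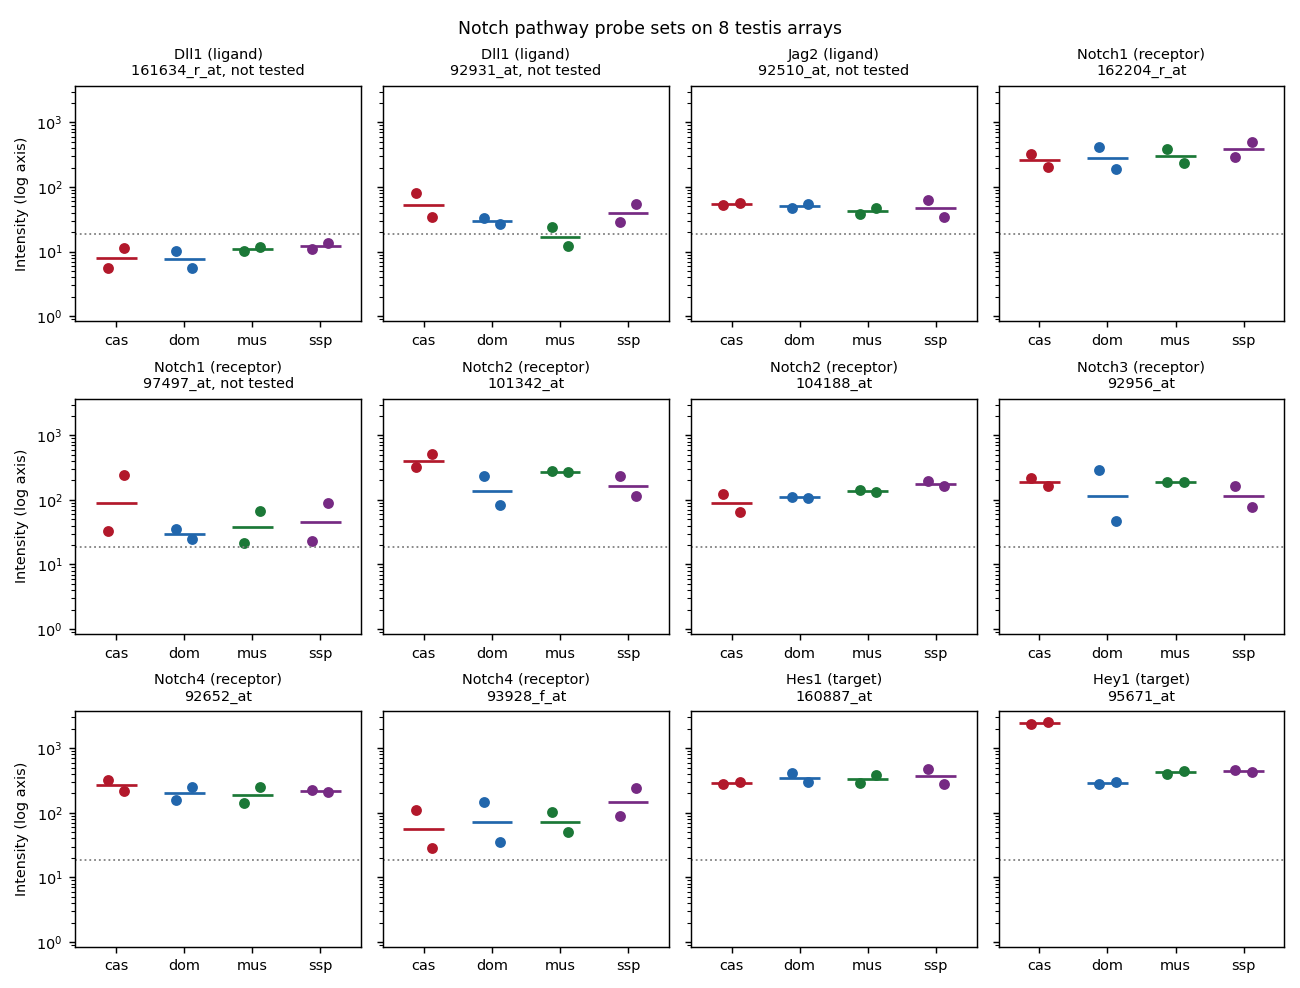
Intensity (log axis) of each of the 12 member probe sets on the 8 arrays, by group (cas, castaneus; dom, domesticus; mus, musculus; ssp). Points are arrays, bars are the geometric mean of the 2 deposited values without the floor, and the dotted line is the floor of 18.7. The 2 castaneus arrays stand at 2360.1 and 2532.2 for Hey1. In the other panels the groups overlap, except for Notch2 and for Dll1 by 92931_at. For Notch2 both castaneus arrays (101342_at) or both ssp arrays (104188_at) lie above the other 6. For Dll1 by 92931_at both musculus arrays lie below the other 6.

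Among the target genes, Hey1 was far brighter in the castaneus RNA than elsewhere. Its intensity was 2360.1 and 2532.2 on the castaneus arrays, 282.7 and 300.3 on the domesticus arrays, 405 and 451.5 on the musculus arrays, and 462.3 and 429.1 on the ssp arrays. Every castaneus value lay above every other, and the lower castaneus array was 5.11-fold above the brightest of the other 6. The geometric means were 2445 in castaneus (SD 0.07 log2), 445.4 in ssp (SD 0.08), 427.6 in musculus (SD 0.11) and 291.4 in domesticus (SD 0.06). Castaneus thus exceeded ssp by 5.49-fold, musculus by 5.72-fold and domesticus by 8.39-fold.

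The 2 arrays of a group differed by at most 1.11-fold for Hey1. The span of its group means, 3.07 on the log2 scale, was larger than that of 98.5% of the 8874 tested probe sets. Ranked by the log2 distance from the lower castaneus array down to the brightest other array, Hey1 was in place 7 among all tested probe sets. These figures describe the value by which the gene was picked.

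Among the 3 other groups, ssp and musculus overlapped for Hey1, and domesticus was lowest. The log2 difference of musculus minus ssp was -0.06 (SE 0.23, 95% interval -0.61 to 0.49; limma, adjusted p = 0.955), and its sign turned to 0.04 when arrays were centred on their medians. Both domesticus arrays lay below all 6 others, as did those of 5.47% of tested probe sets. The domesticus minus musculus difference was -0.55 (SE 0.23; limma, adjusted p = 0.409) and domesticus minus ssp -0.61 (SE 0.23; limma, adjusted p = 0.355). Neither passed the threshold for a pair of groups, which was a Benjamini-Hochberg adjusted p under 0.05 over all tested probe sets and a difference of at least 1 on the log2 scale.

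Hes1, the other target measured among the members and like Hey1 a transcriptional repressor, was not brightest in castaneus. Its intensity was 275.5 and 303.3 in castaneus, 417.7 and 295.9 in domesticus, 285.3 and 384.4 in musculus, and 478.7 and 282 in ssp. The values of all 4 groups overlapped. The geometric means ran from 289.1 in castaneus through 331.2 in musculus and 351.6 in domesticus to 367.4 in ssp, a 1.27-fold span, against up to a 1.7-fold gap between 2 replicate arrays. The castaneus minus ssp difference, the widest, was -0.35 on the log2 scale (SE 0.36, 95% interval -1.22 to 0.52; limma, adjusted p = 0.793). Without ssp replicate 1 the ssp minus castaneus difference turned from 0.35 to -0.04.

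**Figure D2:**
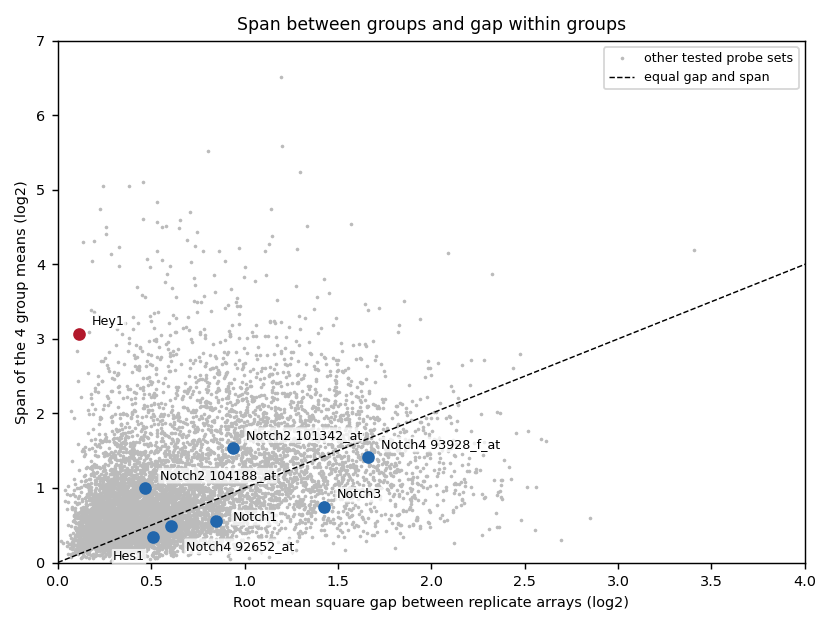
Span of the 4 group means (log2) against the root mean square gap between the 2 replicate arrays (log2) for all 8874 tested probe sets, with Hey1 in red, the 7 other tested member probe sets in blue and a dashed line where both are equal. Hey1 lies at a span of 3.07 with a gap of 0.12, while 5 of the other 7 lie below the line, the exceptions being both Notch2 probe sets.

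Of the 7 tested member probe sets other than that of Hey1, 0 passed the moderated F test of limma at an adjusted p under 0.05 with a span of at least 1 on the log2 scale, and 0 had an unadjusted p under 0.05. Over all tested probe sets 1.76% passed, and 15.9% had an unadjusted p under 0.05. The adjusted p of the 7 lay between 0.419 and 0.91. The median span of their group means was 0.74 on the log2 scale, against 0.81 over all tested probe sets, and their median root mean square gap between replicates was 0.85, against 0.56.

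The 6 pairs of groups gave 42 comparisons for these 7 probe sets, of which limma called 0 in either direction, with 2 at an unadjusted p under 0.05. Hey1 in the 3 pairs without castaneus also gave 0 calls, with 2 at an unadjusted p under 0.05. These are 4.76% and 66.7%, against 12.2% over all tested probe sets and pairs. Over all tested probe sets the share called was 0.676% for castaneus with domesticus, 0.947% for castaneus with musculus, 0.349% for castaneus with ssp, 0.744% for domesticus with musculus, 0.687% for domesticus with ssp and 0.98% for musculus with ssp. The count of 0 among so few probe sets is near this background.

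Notch2, one of the receptors, had the widest span among these 7 by its probe set 101342_at. Its intensity was 324.5 and 510.3 in castaneus, 231.4 and 84.5 in domesticus, 283.6 and 267 in musculus, and 231.9 and 117 in ssp. Both castaneus arrays were above the other 6, as for 5.74% of all tested probe sets. The castaneus and domesticus means, 406.9 and 139.8, differed by 1.54 on the log2 scale (SE 0.57, 95% interval 0.16 to 2.92), and by 0.81 without domesticus replicate 2 and 2.27 without domesticus replicate 1. The pair had an unadjusted p of 0.0337 and an adjusted p of 0.389 by limma.

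The other Notch2 probe set, 104188_at, ordered the groups differently. It read 121.6 and 65.6 in castaneus, 110.5 and 108.4 in domesticus, 141.2 and 134.3 in musculus, and 196.3 and 161.8 in ssp. Here castaneus had the lowest mean, 89.31, and both ssp arrays lay above the other 6, as for 6.42% of tested probe sets. Castaneus was 2-fold below ssp (log2 SE 0.34, 95% interval of the log2 difference -1.82 to -0.17), with an unadjusted p of 0.0253 and an adjusted p of 0.355 by limma. The direction of Notch2 in castaneus therefore depended on the probe set.

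Notch1, the receptor best known from T cell development, had 1 tested probe set. This was 162204_r_at, at 329.7 and 205.7 in castaneus, 414.6 and 190.4 in domesticus, 392 and 239.7 in musculus, and 288.8 and 506.7 in ssp. All groups overlapped, with gaps between replicates of up to 2.18-fold against a 1.47-fold span of the group means (limma, adjusted p = 0.894). The suffix _r in an identifier marks probes that met fewer of the manufacturer's design rules, and _f marks probes that can match related transcripts.

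The second Notch1 probe set, 97497_at, was too dim to be tested. It read 32.9 and 240.5 in castaneus and between 21.9 and 88.5 on the other 6 arrays, and only castaneus replicate 2 reached its array's 40th percentile. The 2 castaneus arrays differed by 7.31-fold, more than any group means of this probe set did, at 2.96-fold.

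Notch3, the receptor known from smooth muscle of blood vessels, read 221.4 and 165.4 in castaneus, 286 and 47 in domesticus, 188.2 and 189.3 in musculus, and 166.1 and 78.8 in ssp. The brightest and the dimmest array were both domesticus, 6.09-fold apart. The group means lay between 114.4 in ssp and 191.4 in castaneus (limma, adjusted p = 0.869).

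Notch4, a receptor known from endothelial cells, read 322.9 and 220.3 in castaneus, 157 and 252 in domesticus, 142.6 and 254.4 in musculus, and 225.1 and 213.4 in ssp by 92652_at. Castaneus had the highest mean, 266.7, and its lower array lay within the range of the others (limma, adjusted p = 0.852). The second Notch4 probe set, 93928_f_at, read 108.6 and 28.4 in castaneus, 145.2 and 35.1 in domesticus, 102.3 and 50.3 in musculus, and 90.2 and 243.3 in ssp. By that probe set castaneus had the lowest mean, 55.54, and ssp the highest, 148.1 (limma, adjusted p = 0.79). Their log2 difference of 1.42 became 0.45 and 2.38 without castaneus replicates 2 and 1, and 0.7 and 2.13 without ssp replicates 2 and 1.

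In Notch1, Notch2 and Notch4, each with a pair of probe sets, 1 probe set thus gave castaneus the highest mean of the 4 groups and 1 the lowest. Over the 7 tested member probe sets other than Hey1, castaneus was highest in 3, which is 42.9%, against 24% of all tested probe sets. In 2 of the 7, both of Notch2, some group stood wholly above or below the other 6 arrays, against 39.8% of all tested probe sets.

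The ligands were dim. Jag2, a ligand of the Jagged family, read 52 and 57.4 in castaneus, 46.8 and 54.7 in domesticus, 38.9 and 47.3 in musculus, and 64 and 34.1 in ssp, below the 40th percentile on all 8 arrays. Its geometric means lay within 1.27-fold of each other, and the 2 ssp arrays alone differed by 1.88-fold.

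Dll1, a ligand of the Delta family, read 80.2 and 34.6 in castaneus, 33.6 and 27 in domesticus, 23.8 and 12.3 in musculus, and 28.8 and 53.7 in ssp by 92931_at. Both musculus arrays were the dimmest, with 1 of them at the floor. The second Dll1 probe set, 161634_r_at, was below the floor on all 8 arrays, at 5.5 to 13.4. Neither Dll1 probe set nor that of Jag2 was tested, so no test of the ligands is given.

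Other genes of the pathway were taken from a list of 61, of which 34 had probe sets and 30 had at least 1 that was tested, 34 probe sets in all. Of these, 0 passed the F test of limma, against 1.76% of all tested probe sets, so 0 among 34 is near this background. An unadjusted p under 0.05 was found for 2, those of Hes3 and of Kat2b by 104070_at, against 15.9% of all tested probe sets. In the 6 pairs limma called 0 of 204 comparisons in either direction, with 14 at an unadjusted p under 0.05, which is 6.86% against 12.2% over all tested probe sets. The median span was 0.72 on the log2 scale, against 0.81 over all tested probe sets. Castaneus had the highest mean in 10 of the 34, which is 29.4%, against 24% of all tested probe sets.

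**Figure D3:**
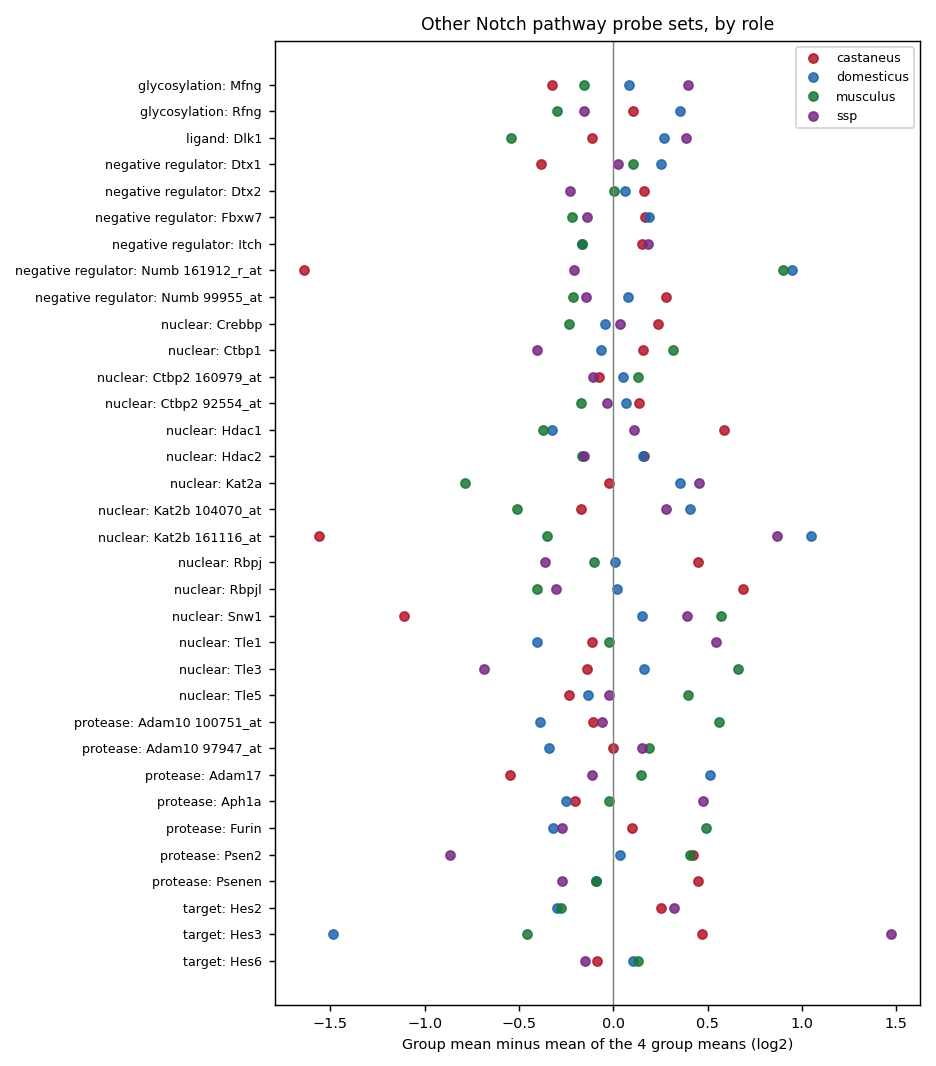
Group mean minus the mean of the 4 group means (log2) for the 34 tested probe sets of other Notch pathway genes, ordered by role, with 1 point per group. The widest spread is that of Hes3, from domesticus to ssp, a span of 2.96, and the castaneus points lie on either side of 0.

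The target Hes3, a repressor of the same family as Hes1, had the widest span in the list. It read 324.5 and 169.9 in castaneus, 67.4 and 54.7 in domesticus, 74.9 and 202.9 in musculus, and 458 and 485.8 in ssp. Both ssp arrays were above, and both domesticus arrays below, the other 6. The domesticus and ssp means, 60.72 and 471.7, differed by 7.77-fold (log2 SE 0.54), but limma did not call the pair (adjusted p = 0.0891) or the 4 groups (adjusted p = 0.127). The F test came nearer to the threshold with a 60th percentile filter (adjusted p = 0.0561) and a trended and robust variance (adjusted p = 0.0541). In the other alternative fits of all 8 arrays its adjusted p was 0.103 to 0.196.

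For Hes2, another member of that family, ssp was highest at 215.9, next to castaneus at 205.1, and domesticus lowest at 140.2 (limma, adjusted p = 0.649). The further targets Hey2, Heyl, Hes7 and Nrarp were not analysed here, and the probe sets of Hes5 were too dim to be tested.

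Among the nuclear partners, Rbpj, the DNA-binding protein of the pathway, read 211.1 and 153.4 in castaneus, 114.6 and 152.6 in domesticus, 101 and 148.4 in musculus, and 180.3 and 58.1 in ssp. Its castaneus mean, 180, was the highest, and the arrays overlapped (limma, adjusted p = 0.809). Rbpj was singled out for its role after its values were seen, while the genes that follow were taken as those of widest span in each role.

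Kat2b, a histone acetyltransferase that assists the Notch complex, spanned 6.09-fold by 161116_at, from 20.14 in castaneus, where 1 of 2 arrays was at the floor, to 122.6 in domesticus (limma, adjusted p = 0.511). The size of that span rests on the floor and on 1 array: the log2 difference of 2.61 became 1.7 with a floor at the 20th percentile, 1.61 without domesticus replicate 2 and 3.61 without domesticus replicate 1. Its brighter probe set 104070_at was lowest in musculus, at 210.9 against 265.9 in castaneus and 399.1 in domesticus (limma, adjusted p = 0.252). Snw1, which binds the Notch complex and also takes part in splicing, was lowest in castaneus at 154.6 against 370.7 to 496.1, but its 2 castaneus arrays read 396.9 and 60.2 (limma, adjusted p = 0.705). Musculus minus castaneus was 1.68 on the log2 scale, 0.32 without castaneus replicate 2 and 3.04 without castaneus replicate 1.

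Among the negative regulators, Numb, which targets the receptor for removal from the membrane, was lowest in castaneus by 161912_r_at. That probe set read 6.2 and 20.6 in castaneus, 98.2 and 141.3 in domesticus, 178.1 and 72.7 in musculus, and 21 and 132.5 in ssp. Both castaneus arrays lay below the other 6, as for 5.43% of tested probe sets, with ssp replicate 1 next to them (limma, adjusted p = 0.359). With 1 castaneus array at the floor, domesticus minus castaneus was 2.59 on the log2 scale and 1.64 with a floor at the 20th percentile. The brighter Numb probe set, 99955_at, was highest in castaneus, at 253.4 against 181.2 to 221.9 (limma, adjusted p = 0.74). Dtx1, a Deltex ubiquitin ligase, was also lowest in castaneus, at 609.7 against 807.1 to 949.6 (limma, adjusted p = 0.673).

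Of the genes that process the receptor, Psen2, a catalytic subunit of gamma-secretase, was lowest in ssp at 66.98 against 125.2 to 164.7 (limma, adjusted p = 0.482). Its ssp arrays read 104.1 and 43.1, and castaneus minus ssp moved from 1.3 on the log2 scale to 0.66 without ssp replicate 2 and 1.93 without ssp replicate 1. Adam17, a membrane protease, ran from 65.94 in castaneus to 137.7 in domesticus (limma, adjusted p = 0.845). Its castaneus arrays read 33.5 and 129.8, and the log2 difference of 1.06 became 0.08 without castaneus replicate 1 and 2.04 without castaneus replicate 2. Of the Fringe genes, whose products add sugars to the receptor, Mfng spanned 1.65-fold and Rfng 1.56-fold (limma, adjusted p = 0.773 and 0.531). The third, Lfng, was too dim to be tested, at 27.1 to 115. Dlk1, a membrane protein related to the Delta ligands, spanned 1.9-fold, from 215.2 in musculus to 409.4 in ssp (limma, adjusted p = 0.555).

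The genes whose log2 intensities over the 8 arrays were most like those of Hey1, by Pearson correlation, were Dcps (r = 0.975), Pura (0.973), Igfals (0.966), Rsu1 (0.957) and Pnp (0.946). The 8 arrays come from only 4 RNA samples, so each r mainly reflects a high castaneus pair, and it is a description. Dcps encodes a scavenger enzyme of mRNA decapping, Pura a single-stranded nucleic acid binding protein, Igfals the acid-labile subunit of the insulin-like growth factor complex, Rsu1 a Ras suppressor and Pnp purine nucleoside phosphorylase.

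All 5 had both castaneus arrays above the other 6, but the size of the step differed. Castaneus exceeded the next highest group by 1.44-fold for Dcps, 1.7-fold for Pura, 2.41-fold for Igfals, 3.23-fold for Pnp and 3.26-fold for Rsu1, against 5.49-fold for Hey1. Igfals passed the filter only through its 2 castaneus arrays. Rsu1, at 1079.3 and 1107.7 in castaneus and 193.6 to 340.3 elsewhere, was the largest of these 5 steps.

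**Figure D4:**
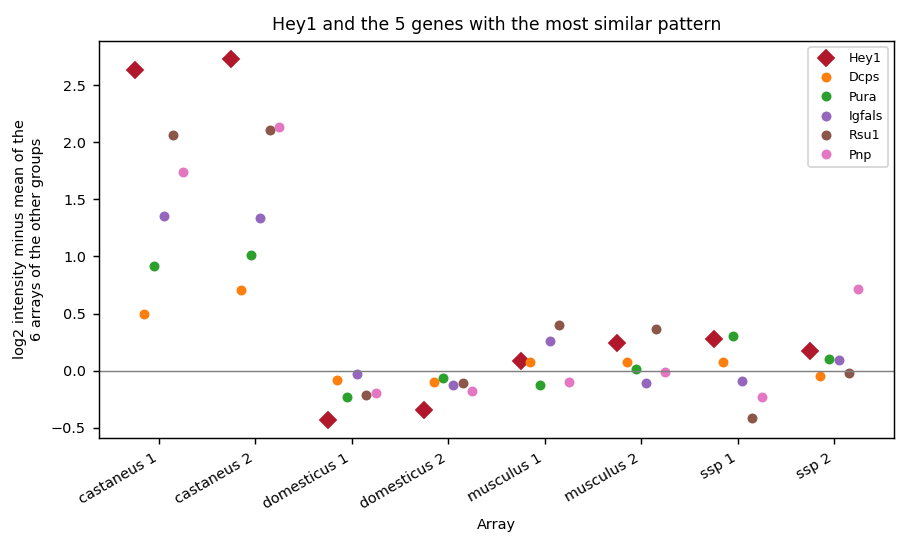
Log2 intensity of Hey1 (diamonds) and of the 5 genes most like it (circles) on each array, as the difference from the mean of the 6 arrays of the other groups. Hey1 has the highest points on both castaneus arrays and the lowest on both domesticus arrays.

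Marker genes of cell types were read as the sum of their intensities, each by its brightest probe set. With no array of another tissue, these sums do not check the testis label. A sum follows its brightest probe sets: Hba-a1 gave 93.3% of the red cell sum, Actg2 70.6% of the smooth muscle sum, Clu 64.8% of the Sertoli sum and Cyp17a1 61.9% of the Leydig sum. The 10 markers of spermatids and spermatocytes summed to intensities of 206500 to 316500 on an array, and the 8 measured Sertoli markers to 8570 to 10620. Markers of cell types in which Hey1 or Notch receptors are known were set beside the Hey1 values. The 12 measured endothelial markers of 14 listed summed to 1946 and 2127 in castaneus, 1604 and 1691 in domesticus, 2229 and 2275 in musculus, and 1246 and 1764 in ssp. Castaneus was thus not the highest group, though both its sums lay above those of domesticus and ssp, and it had the highest mean for 1 of the 12. Vwf gave 26.2% of this sum, with means of 702.7 in castaneus, 715.8 in musculus, 298.9 in domesticus and 212.7 in ssp. Limma called 0 of the 10 tested endothelial markers by the F test, against 1.76% of all tested probe sets. An unadjusted p under 0.05 was found for 1, Vwf, against 15.9% of all tested probe sets.

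The 8 smooth muscle and peritubular markers summed to 6638 and 7108 in castaneus and to 5919 to 7834 elsewhere. The 7 measured Leydig cell markers summed to 4220 and 5575 in castaneus and to 13680 and 14460 in musculus. The F test called 2 of the 7, Cyp17a1 and Star, both highest in musculus, against 1.76% of all tested probe sets. An unadjusted F test p under 0.05 was found for 6 of the 7, against 15.9% of all tested probe sets. Hsd3b6 was instead highest in domesticus, at 321.1 against 53.56 in castaneus, and Insl3 was highest in ssp, at 149.7. The 10 striated muscle markers summed to 2230 and 2259 in castaneus, with castaneus highest for 4. They summed to 982.3 and 1239 in domesticus, 1735 and 1442 in ssp, and 2806 and 3267 in musculus. Actn3 gave 49.3% of this sum, with means of 2162 in musculus, 1149 in castaneus, 314.8 in domesticus and 237.6 in ssp. The places of musculus and of castaneus in the sum thus rest largely on this 1 gene. The sums for macrophages and leukocytes (10 markers, 2576 and 2722 in castaneus), epididymis (4, 97.8 and 374.1) and red cells (3, 2007 and 5451) did not have both castaneus arrays above all others either. Of 72 measured markers 5 were at the floor on 4 or more arrays: Sycp3 on 7, Acta1 on 6, Adgre1 on 5, and Tie1 and Defb1 on 4. The arrays with Acta1 above the floor were those of castaneus, at 26 and 70, and its probe set was too dim to be tested. The share of any of these cell types in the Hey1 difference was not tested.

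**Figure D5:**
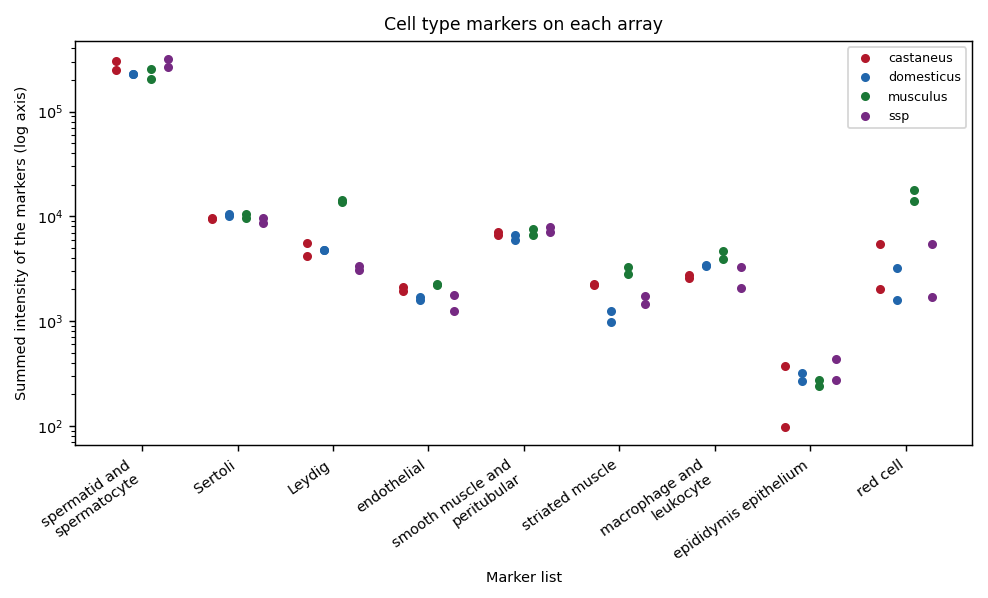
Summed intensity (log axis) of the measured markers of each of 9 cell type lists, with 1 point per array and colours by group. The castaneus points lie above those of all other groups in none of the lists, and both musculus points lie above all others in 5: Leydig, endothelial, striated muscle, leukocyte and red cell markers. Of the striated muscle sum 49.3% came from Actn3, and of the red cell sum 93.3% from Hba-a1.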

How the data were processed

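Testis RNA of 4 groups was measured on 2 Affymetrix arrays each. The authors deposited linear intensities, 1 per probe set and array; how probes were summarised and scaled is not stated in the labels. The mean after trimming 2% at each end was 495.6 to 496.7 on every array, and no further scaling was applied. Gene symbols came from the platform annotation (396 probe sets had several and 1193 none), and 10817 were matched by gene number to a RefSeq table of assembly GRCm38.p6, used only for names and gene order.

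Log2 intensities were fitted with limma 3.58.1 in R 4.3.3, with 1 mean per group over all 8 arrays (4 residual degrees of freedom, 2.34 prior degrees of freedom, prior SD 0.36 log2). The F test and 6 pairwise contrasts were adjusted by Benjamini-Hochberg over 8874 probe sets. Alternatives were the scaling, filter, floor, variance model, replicate block and leaving out each array. The number of arrays limits the precision.

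The members, lists and tests were chosen with earlier results of these data known. Named were all members, the pathway genes called or, per role, the pair of probe sets with the widest span, and the 5 genes most correlated with Hey1. Sums of markers use the brightest probe set of each gene.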

Additional observations from a re-analysis of the deposited data

How the results depend on the processing

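The counts of 0 members other than Hey1 and 0 other pathway probe sets among the 4 groups, and of 0 members in each pair, were 0 under every alternative run: 2 scalings, a 60th percentile filter and no filter, a floor at the 20th percentile, a trended and robust variance, the replicate number as a block, each of the 8 arrays left out and, for pairs, only the 4 arrays of the pair. Over all probe sets the F test called 156, and 7 to 43 with 1 array left out, 42 with the replicate block, 31 with no filter, 309 with the 60th percentile filter and 383 with the trended variance. In each of the 6 pairs, the fit of only its 4 arrays called 0 of all probe sets. Its count of 0 members was thus fixed in advance and is no support. Leaving out an array of the pair itself leaves 1 array in that group. Such fits, and others that call fewer probe sets, say little about the stability of a count of 0. The log2 difference of Hey1 between castaneus and the next group was 2.46, 2.55 after median centring and 2.40 to 2.51 with 1 array left out. Median centring shifts groups by up to 0.14 log2 against each other. The musculus minus ssp difference of Hey1, -0.06, became 0.04 after median centring and lay between -0.14 and 0.02 with 1 array left out, and ssp minus castaneus for Hes1 lay between -0.04 and 0.73. Of 21 differences of single probe sets, none of them called, 140 of 141 refits and 166 of 168 with 1 array left out kept their direction, but sizes moved: those of Adam17, Snw1, Psen2, Notch2 by 101342_at, Notch4 by 93928_f_at, and Kat2b and Numb are given with their tests. Among the genes most like Hey1, Dcps stayed among the 5 highest in 13 of 13 settings, Pura in 12 of 13, Igfals in 9 of 12, Rsu1 in 5 of 13 and Pnp in 4 of 13. Same-numbered arrays deviated together with correlations of 0.0263 to 0.171 across probe sets, all of them positive, and 2 of the 6 were under 0.1. The main fit did not take the numbers as pairs, and the alternative fit took them as a block. Whether same-numbered arrays shared a batch was not tested.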

Other observations

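Of the genes next to Hey1 in the gene order of chromosome 3, 0 of 5 probe sets had both castaneus arrays above the other 6. This was so for 5.74% of all tested probe sets, so a count of 0 of 5 is near that background. On one side the nearest tested genes were Stmn2, a regulator of microtubules in neurons, and Pex2, a peroxisome assembly factor. On the other side they were Mrps28, of the mitochondrial ribosome, and Tpd52. By 95668_at, Stmn2 read 24.1 and 13.8 in castaneus, 5.4 and 68.2 in domesticus, 91.8 and 85.4 in musculus, and 139.2 and 119.6 in ssp. That probe set passed the filter only through its 2 ssp arrays, and 1 castaneus and 1 domesticus array were at the floor. The other Stmn2 probe set, 95669_g_at, read 122.8 and 102.6 in castaneus and 146.9 and 242 in ssp. Mrps28 read 215 and 246.6 in castaneus and 335.6 and 332.9 in ssp. For Mrps28 and both Stmn2 probe sets, both ssp arrays lay above the other 6, as for 6.42% of all tested probe sets. Pex2 had nearly equal means in castaneus and musculus, 261.7 and 262, and Tpd52 was highest in domesticus at 187. Limma called 0 of the 5 probe sets of these 4 genes by the F test, against 1.76% of all tested probe sets. The adjusted p lay between 0.175 and 0.645. An unadjusted p under 0.05 was found for 1 of the 5, 95668_at of Stmn2, against 15.9% of all tested probe sets. The 4 genes were chosen after the data were seen.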
